A study of Mus musculus with 9 samples.

Results

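Gadd45a, Gadd45b, Cdkn1a, Cdkn1b, Ccng1, Ccng2, Plk2, Sesn1, Mdm2 and Trp53inp1 are grouped here as growth arrest genes of p53 and FoxO transcription factors. The name is a label for all 10, although Mdm2 degrades p53 and Gadd45b is the family member that NF-kB signalling induces. The 10 genes were chosen by gene symbol from the 56691 genes of the deposited expression table. All 10 were found, and all 10 were among the 11995 genes tested, those with 3 or more libraries at or above 1 FPKM. FPKM is a read count scaled to library depth and to the length of the exons of a gene.

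RNA was sequenced from RAW264.7, an established mouse macrophage line that forms osteoclast-like cells under RANKL, the cytokine that drives osteoclast formation. The 9 libraries comprised 3 of untreated control cells, 3 of cells given RANKL and 3 of cells given RANKL with uridine (UD), all collected after 3 days in culture. The labels name no genetic change in any group, every library came from this 1 line, and the UD dose of these libraries is not given in the sources used here. The design text calls the libraries of a group biological replicates without saying how the cultures were kept apart, so the p-values below measure the spread between these libraries.

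Library totals ranged from 15951800 to 19746862 counts, with a median of 19182637. The 10 osteoclast markers summed to 57.62 to 60.34 FPKM in control, 2715.42 to 2919.81 in RANKL and 1723.61 to 1760.68 in RANKL + UD libraries, and 9 of the 10 were tested. The 8 macrophage markers summed to 9420.27 to 10011.86, 2528.33 to 2772.23 and 2205.06 to 2339.0 FPKM, respectively. Lyz2 alone held 7818.18 to 8299.17 FPKM in control libraries. At an edgeR adjusted p under 0.05, 1 of the 8 was higher (Cd68) and 7 lower in RANKL against control. In RANKL + UD against RANKL 1 was higher (Adgre1) and 6 lower. Of all tested genes 57.6% and 38.8% passed in these comparisons. None of 8 fibroblast and osteoblast markers and none of 5 lymphocyte markers reached the level for testing. Their sums were at most 1.85 and 0.29 FPKM in any library, with Sp7, Cd3e, Cd3d and Ms4a1 at 3 counts or fewer in every library.

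As background, p53 is a transcription factor that responds to DNA damage and other stress, and FoxO factors enter the nucleus when PI3K-Akt signalling is low. Both induce genes that stop the cell cycle. The products act at different points. Cdkn1a and Cdkn1b bind and inhibit cyclin-dependent kinases, Gadd45 proteins bind cell cycle and repair proteins and feed into stress kinase signalling, and the G-type cyclins Ccng1 and Ccng2 are unconventional cyclins tied to growth arrest. Plk2 is a polo-like kinase of the stress response, Sesn1 restrains growth signalling and oxidants, Trp53inp1 is a stress-induced cofactor of p53, and Mdm2 is the ubiquitin ligase that degrades p53 and is itself a p53 target. Macrophage precursors leave the cell cycle as they become osteoclasts.

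The identifiers in the table were ENSMUSG00000036390 for Gadd45a, ENSMUSG00000015312 for Gadd45b, ENSMUSG00000023067 for Cdkn1a, ENSMUSG00000003031 for Cdkn1b, ENSMUSG00000020326 for Ccng1, ENSMUSG00000029385 for Ccng2, ENSMUSG00000021701 for Plk2, ENSMUSG00000038332 for Sesn1, ENSMUSG00000020184 for Mdm2 and ENSMUSG00000028211 for Trp53inp1. The processing notes name mm10. Only 1 of the 10 genes in the table started within 1000 bases of its GRCm38 start in RefSeq, so the build of the table's coordinates is not settled and they are not printed.

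RefSeq promoter windows, the 250 bases before an annotated start in GRCm38.p6, were found for 9 of the 10 genes, in 11 windows because Cdkn1a and Sesn1 each had 2 starts. No entry was matched for Trp53inp1. The windows below belong to the genes with the largest differences with UD (Gadd45a, Plk2 and Ccng2), to Ccng1, which went the other way from Ccng2, to the p53 feedback gene Mdm2 and to the upstream start of Cdkn1a. They lie at chr6:67037408-67037657 (minus strand), chr13:110394794-110395043 (plus), chr5:93267323-93267572 (plus), chr11:40755287-40755536 (minus), chr10:117710759-117711008 (minus) and chr17:29090729-29090978 (plus). Each is written 5′ to 3′ along the gene's strand and ends at the base before the start. Capitals mark matches to the FoxO motif GTAAACA or to the p53 half-site.
Gadd45a: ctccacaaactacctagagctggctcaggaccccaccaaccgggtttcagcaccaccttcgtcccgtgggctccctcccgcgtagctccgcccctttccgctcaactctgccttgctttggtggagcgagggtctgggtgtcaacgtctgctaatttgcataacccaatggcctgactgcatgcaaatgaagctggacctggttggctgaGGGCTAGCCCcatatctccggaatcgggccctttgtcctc
Plk2: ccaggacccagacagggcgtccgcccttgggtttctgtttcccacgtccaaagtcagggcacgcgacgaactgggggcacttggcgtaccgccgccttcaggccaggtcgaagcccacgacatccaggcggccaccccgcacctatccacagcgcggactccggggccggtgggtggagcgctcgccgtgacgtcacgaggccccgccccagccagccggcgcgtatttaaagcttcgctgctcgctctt
Ccng2: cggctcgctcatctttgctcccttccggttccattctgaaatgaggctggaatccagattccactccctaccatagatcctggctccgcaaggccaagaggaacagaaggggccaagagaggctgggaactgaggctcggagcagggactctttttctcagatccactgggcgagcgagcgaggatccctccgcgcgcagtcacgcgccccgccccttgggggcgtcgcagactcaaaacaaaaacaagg
Ccng1: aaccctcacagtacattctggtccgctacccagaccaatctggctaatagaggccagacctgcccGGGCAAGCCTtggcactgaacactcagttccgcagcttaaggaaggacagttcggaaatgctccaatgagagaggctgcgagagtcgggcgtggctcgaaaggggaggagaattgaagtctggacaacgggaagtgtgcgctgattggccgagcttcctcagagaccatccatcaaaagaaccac
Mdm2: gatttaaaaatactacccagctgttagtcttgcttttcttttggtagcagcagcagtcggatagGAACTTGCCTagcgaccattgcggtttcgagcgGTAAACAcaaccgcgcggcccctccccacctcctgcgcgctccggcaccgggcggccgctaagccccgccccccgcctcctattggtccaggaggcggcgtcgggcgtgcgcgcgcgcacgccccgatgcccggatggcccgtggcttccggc
Cdkn1a: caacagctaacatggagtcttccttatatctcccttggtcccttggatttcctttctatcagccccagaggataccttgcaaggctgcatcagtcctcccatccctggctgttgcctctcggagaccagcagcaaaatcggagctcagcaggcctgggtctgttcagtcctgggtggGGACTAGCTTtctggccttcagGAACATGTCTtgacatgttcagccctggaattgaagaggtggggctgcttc

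The p53 half-site, a decamer that reads alike on both strands, was found in 5 of the 11 windows and in 7.13% of 32851 windows of all genes. Its matches lay 40 to 31 bases before the start in Gadd45a, 185 to 176 in Ccng1, 186 to 177 in Mdm2, 173 to 164 in 1 window of Sesn1, and 73 to 64 and 51 to 42 in the upstream window of Cdkn1a. GTAAACA on either strand was found in 1 of 11 windows, 153 to 147 bases before the start of Mdm2, against 3.17% of all windows. The AP-1 motif TGANTCA and the ATF4-CHOP motif TGATGCAA were found in 0 of 11 windows, against 6.75% and 0.791% of all. CCAAT was found in 7 and the GC box GGGCGG in 9 of 11, against 33.8% and 32.7%, and TATAAA in 1 (Gadd45b), against 12.4%. The 11 windows held 54.0% to 71.2% G and C bases, against a median of 52.4% over all windows. The shares were not adjusted for this base content. The windows of Plk2 and Ccng2 held a GC box and no match to the other motifs. The genes holding a half-site were not of 1 direction with UD (below). A match is only a match of letters in this window. The set is named for p53 and FoxO, so the half-site share is not independent of the choice of genes.

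In control cells Cdkn1a had the highest level of the 10 genes, at 56.8 ± 4.55 FPKM (SD, n = 3), and Gadd45a the lowest, at 2.90 ± 0.371. The order by mean FPKM was Cdkn1a, Ccng1, Mdm2, Cdkn1b, Sesn1, Ccng2, Plk2, Gadd45b, Trp53inp1 and Gadd45a. Neighbours in this order overlapped for Cdkn1a with Ccng1 and for Cdkn1b with Sesn1. With RANKL the order became Ccng1, Cdkn1a, Mdm2, Cdkn1b, Plk2, Sesn1, Ccng2, Gadd45b, Trp53inp1 and Gadd45a, in which only Cdkn1a and Mdm2 overlapped. With RANKL + UD it was Ccng1, Cdkn1a, Mdm2, Cdkn1b, Sesn1, Gadd45b, Ccng2, Plk2, Trp53inp1 and Gadd45a, in which only Gadd45b and Ccng2 overlapped. Ccng1 thus passed Cdkn1a under RANKL and stood at more than 100 FPKM in every library with UD.

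**Figure D1:**
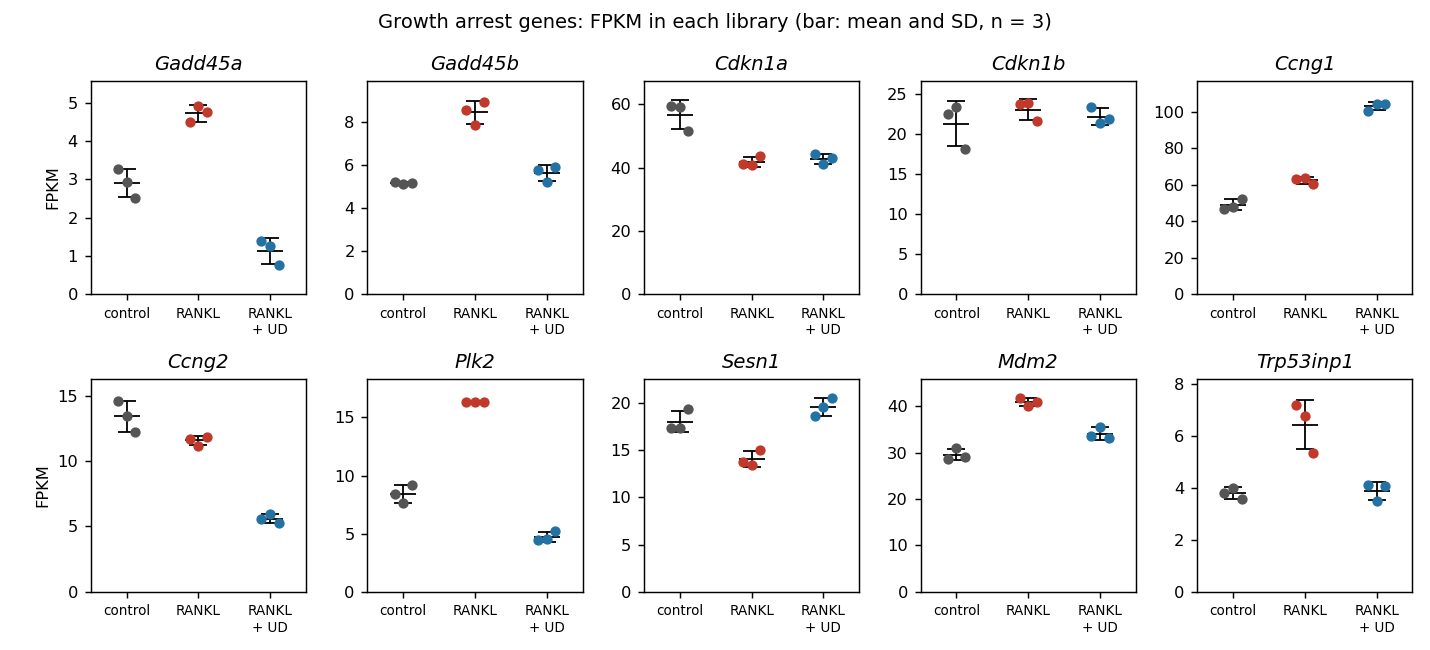
FPKM (vertical axis, from 0) of each of the 10 growth arrest genes in each of the 9 libraries, with 1 panel per gene and its own scale; points are libraries, and the bars give the mean and SD of 3. Gadd45a and Plk2 are highest in RANKL and lowest in RANKL + UD libraries, Ccng1 reaches 100.52 to 104.27 FPKM with UD, and Cdkn1b overlaps between all groups.

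RANKL against control asks how the genes differ as the cells become osteoclast-like. Of the 10 genes 7 were higher, 2 lower and 1 not called at an adjusted p under 0.05, where 57.6% of all tested genes were called, 27.3% as higher and 30.2% as lower. The median log2 fold change was 0.50 over the 10 genes and -0.03 over all tested genes. The libraries of the groups did not overlap for 9 of the 10 (all but Cdkn1b), against 61.7% of all tested genes, 22.9% higher and 38.8% lower. Under total-count scaling the higher calls fell from 47.5% to 36.8% of all calls, and the 10 genes split 6 higher and 3 lower.

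RANKL + UD against RANKL asks what uridine changes on top of RANKL. Here 2 of the 10 genes were higher (Ccng1 and Sesn1), 6 lower (Gadd45a, Gadd45b, Ccng2, Plk2, Mdm2 and Trp53inp1) and 2 not called (Cdkn1a and Cdkn1b). Over all tested genes 38.8% were called, 18.6% as higher and 20.2% as lower. The median log2 fold change was -0.51 over the 10 genes and 0.01 over all tested genes. The libraries did not overlap for the 8 called genes, against 51.7% of all tested genes, 34.1% higher and 17.6% lower. Total-count scaling raised the higher calls from 48.0% to 66.2% of all calls, with the same split of 2 higher and 6 lower among the 10.

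RANKL + UD against control shows where the genes stood relative to untreated cells. Called as higher were 2 genes (Ccng1 and Mdm2), called as lower were 4 (Gadd45a, Cdkn1a, Ccng2 and Plk2), and 4 were not called. Of all tested genes, 54.0% were called, 26.7% as higher and 27.3% as lower. The median log2 fold change was 0.05 over the 10 genes and 0.00 over all. The libraries did not overlap for the 6 called genes, against 59.9% of all tested genes, 29.5% higher and 30.4% lower. The 3 comparisons share libraries with each other, so their values are given side by side and are not independent. All are bulk measurements, in which fewer cells of a type and less RNA per cell cannot be told apart.

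**Figure D2:**
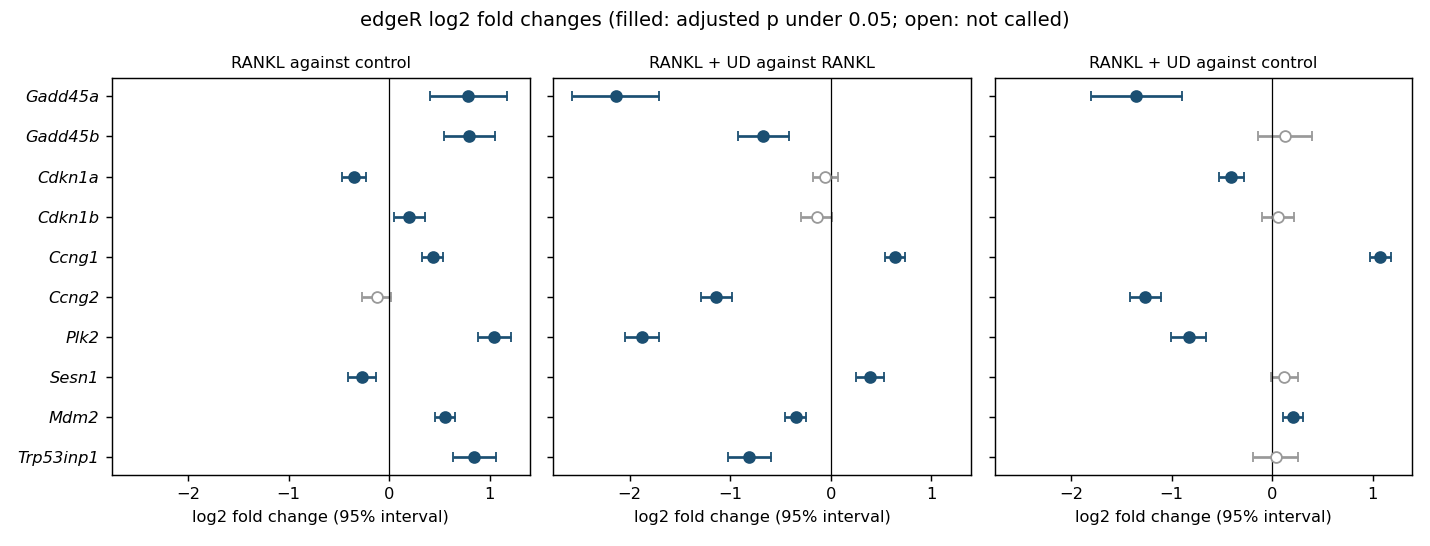
edgeR log2 fold changes (horizontal axis) with 95% intervals for the 10 genes (rows) in the 3 comparisons (panels); filled points have an adjusted p under 0.05 and open points do not. Gadd45a, Gadd45b, Plk2, Mdm2 and Trp53inp1 lie right of 0 in the first panel and left of 0 in the second, whereas Ccng1 lies right of 0 in all panels.

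Gadd45a had the largest fall with UD among the 10 genes. Its levels were 3.26, 2.93 and 2.52 FPKM in control, 4.49, 4.93 and 4.76 in RANKL, and 1.38, 1.25 and 0.75 in RANKL + UD libraries. Every RANKL library was above every control library, and every RANKL + UD library was below both. Gadd45a rose by a log2 fold change of 0.79 (SE 0.183, edgeR adjusted p = 0.000968) with RANKL. It then fell by 2.14 (SE 0.207, adjusted p = 6.33e-08) with UD, a level 4.40-fold lower. That difference was at percentile 0.5 of all tested genes. Against control it fell by 1.35 (SE 0.218, adjusted p = 2.07e-05). These values rest on 23 to 168 reads a library, with 23 in RANKL + UD replicate 3. An opposite-strand transcript, E230016M11Rik, overlaps Gadd45a and held 191 reads over the 9 libraries, against 862 on Gadd45a. The libraries were made strand-specific, whereas whether counting used the strand is not given in the sources used here.

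Gadd45b, the family member that NF-kB signalling induces, had 5.23, 5.10 and 5.17 FPKM in control, 8.56, 7.88 and 8.92 in RANKL, and 5.79, 5.21 and 5.90 in RANKL + UD libraries. RANKL libraries stood above all others, and control and RANKL + UD overlapped. It rose by 0.80 (SE 0.123, edgeR adjusted p = 1.08e-05) with RANKL and fell by 0.67 (SE 0.122, adjusted p = 0.000170) with UD. Against control the difference was 0.13, with an interval of -0.14 to 0.40 and an adjusted p of 0.419. The ratio of Gadd45a to Gadd45b was 0.623, 0.575 and 0.487 in control, 0.525, 0.626 and 0.534 in RANKL, and 0.238, 0.240 and 0.127 in RANKL + UD libraries. Control and RANKL ratios overlapped, and all ratios with UD were lower. The log2 ratio differed by -1.53 between RANKL + UD and RANKL (exact permutation test, two-sided, p = 0.1) and by 0.002 between RANKL and control (p = 1.0). With 3 libraries against 3 the smallest p is 0.1. The third relative, Gadd45g, was below the level for testing, with 4 to 16 reads a library.

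The CDK inhibitor genes Cdkn1a and Cdkn1b were the members not called between RANKL + UD and RANKL. Cdkn1a had 59.57, 59.18 and 51.50 FPKM in control, 41.08, 40.76 and 43.72 in RANKL, and 44.28, 41.15 and 42.99 in RANKL + UD libraries. All libraries with RANKL, with or without UD, were below all control libraries. Cdkn1a fell by 0.35 (SE 0.0578, edgeR adjusted p = 2.27e-05) with RANKL and stood 0.41 below control with UD (SE 0.0580, adjusted p = 4.43e-06). Between RANKL + UD and RANKL the log2 fold change was -0.05, with an interval of -0.17 to 0.07 and an adjusted p of 0.513, and it was 0.03 under total counts. The opposite-strand gene 1700023B13Rik, which overlaps Cdkn1a, held 190 reads against 27407.

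Cdkn1b, the inhibitor that FoxO factors induce, had 22.41, 23.32 and 18.05 FPKM in control, 23.72, 23.79 and 21.54 in RANKL, and 23.29, 21.28 and 21.86 in RANKL + UD libraries. The 3 groups overlapped, and control replicate 3 was the lowest of the 9 libraries. Cdkn1b was called higher with RANKL by 0.20 (SE 0.0748, edgeR adjusted p = 0.0271), but the call was lost without control replicate 3 (0.10, adjusted p = 0.181). It was also lost without RANKL replicate 1 (0.18, adjusted p = 0.0859), without RANKL replicate 2 (0.18, adjusted p = 0.0929), under total counts (0.11, adjusted p = 0.206) and with limma (0.12, adjusted p = 0.320). With UD the log2 fold change against RANKL was -0.14, with an interval of -0.30 to 0.01 and an adjusted p of 0.147, which was 0.0403 when control replicate 3 was left out of the shared fit. Against control it was 0.06 (adjusted p = 0.535). The ratio of Cdkn1a to Cdkn1b was 2.66, 2.54 and 2.85 in control, 1.73, 1.71 and 2.03 in RANKL, and 1.90, 1.93 and 1.97 in RANKL + UD libraries. Control ratios were above all others. The log2 ratio differed by -0.56 with RANKL (exact permutation test, p = 0.1) and by 0.09 between RANKL + UD and RANKL (p = 0.4).

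The G-type cyclins moved apart. Ccng1, a direct p53 target, had 46.86, 47.81 and 52.26 FPKM in control, 62.88, 63.72 and 60.12 in RANKL, and 100.52, 104.23 and 104.27 in RANKL + UD libraries. The 3 groups did not overlap. Ccng1 rose by 0.43 (SE 0.0499, edgeR adjusted p = 1.99e-07) with RANKL and by a further 0.64 (SE 0.0492, adjusted p = 2.38e-09) with UD, 1.56-fold. Relative to control it stood 2.11-fold higher (log2 fold change 1.07, SE 0.0499, adjusted p = 8.89e-14). It was the 1 gene of the 10 called as higher in all 3 comparisons.

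Ccng2, a cyclin that FoxO factors induce, had 14.62, 13.44 and 12.20 FPKM in control, 11.72, 11.18 and 11.86 in RANKL, and 5.53, 5.94 and 5.30 in RANKL + UD libraries. Every RANKL library was below every control library, by a small margin, and every RANKL + UD library was far below both. With RANKL the log2 fold change was -0.13 (interval -0.27 to 0.02, edgeR adjusted p = 0.134). It passed the threshold under total counts (-0.21, adjusted p = 0.0126), with limma (-0.19, adjusted p = 0.0423) and without control replicate 3 (-0.19, adjusted p = 0.0225). With UD Ccng2 fell by 1.14 (SE 0.0747, adjusted p = 2.71e-10), a level 2.20-fold lower than with RANKL and 2.40-fold lower than in control (log2 fold change -1.26, SE 0.0747, adjusted p = 5.38e-12).

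The ratio of Ccng1 to Ccng2 did not overlap between the groups. It was 3.21, 3.56 and 4.28 in control, 5.37, 5.70 and 5.07 in RANKL, and 18.2, 17.5 and 19.7 in RANKL + UD libraries. On the log2 scale it differed by 0.56 between RANKL and control and by 1.78 between RANKL + UD and RANKL. Both had an exact two-sided permutation p of 0.1, the smallest that this design allows. Across the 9 libraries the log2 levels of the 2 genes had a Pearson r of -0.98, which is a description over 9 libraries in 3 groups.

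**Figure D3:**
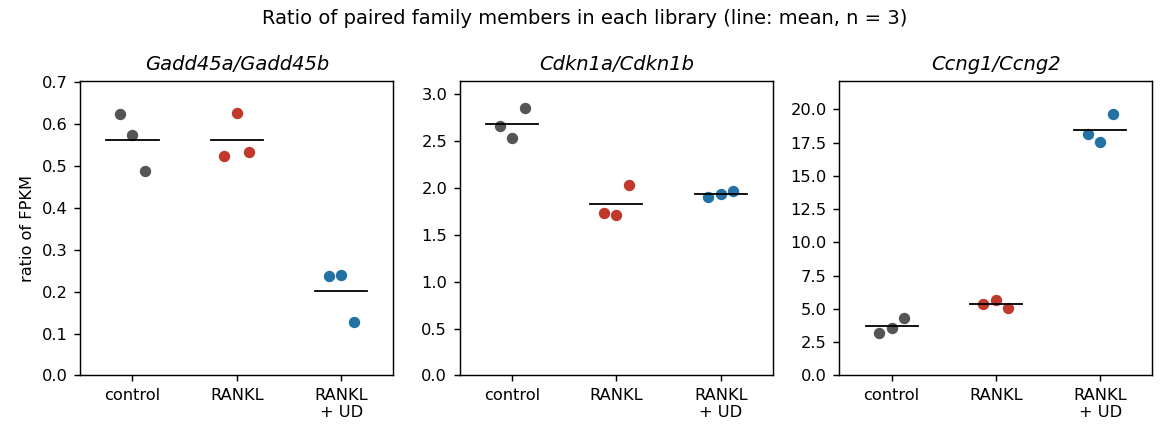
Ratio of FPKM (vertical axis, from 0) of Gadd45a to Gadd45b, Cdkn1a to Cdkn1b and Ccng1 to Ccng2 in each library; points are libraries and lines are means of 3. The Ccng1 to Ccng2 ratio is 17.5 to 19.7 with RANKL + UD against 5.07 to 5.70 with RANKL, and the Gadd45a to Gadd45b ratio is lowest with UD.

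Plk2 had 8.42, 7.66 and 9.17 FPKM in control, 16.33, 16.34 and 16.37 in RANKL, and 4.43, 4.56 and 5.20 in RANKL + UD libraries. The groups did not overlap, with RANKL highest and RANKL + UD lowest. Plk2 rose 2.07-fold with RANKL (log2 fold change 1.05, SE 0.0767, edgeR adjusted p = 1.63e-10), the largest rise of the 10 genes. With UD it fell by 1.88 (SE 0.0810, adjusted p = 5.48e-13), to a level 3.67-fold below RANKL, at percentile 0.5 of all tested genes. It also stood 1.78-fold below control (log2 fold change -0.83, SE 0.0836, adjusted p = 3.11e-08). Gadd45a and Plk2 therefore shared 1 order, with RANKL + UD below control and control below RANKL.

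Sesn1 took the opposite course. Its levels were 17.35, 17.35 and 19.35 FPKM in control, 13.75, 13.45 and 14.99 in RANKL, and 18.63, 19.60 and 20.51 in RANKL + UD libraries. RANKL libraries were below all others, and control and RANKL + UD overlapped. Sesn1 fell by 0.27 (SE 0.0654, edgeR adjusted p = 0.00139) with RANKL and rose 1.31-fold with UD (log2 fold change 0.39, SE 0.0650, adjusted p = 6.38e-05). Against control the difference was 0.12 (interval -0.01 to 0.26, adjusted p = 0.119), which passed the threshold without control replicate 3 (0.17, adjusted p = 0.0287). The same-strand gene 9930024M15Rik, which overlaps Sesn1, held 145 reads against 11158.

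Mdm2 had 28.73, 30.98 and 29.06 FPKM in control, 41.89, 40.06 and 40.97 in RANKL, and 33.63, 35.66 and 33.12 in RANKL + UD libraries. The groups did not overlap, and the libraries with UD lay between the others. Mdm2 rose by 0.56 (SE 0.0489, edgeR adjusted p = 3.17e-09) with RANKL and fell by 0.35 (SE 0.0486, adjusted p = 7.88e-06) with UD, and it remained 0.21 above control (SE 0.0492, adjusted p = 0.00128).

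Trp53inp1 had 3.81, 4.00 and 3.55 FPKM in control, 7.19, 6.74 and 5.35 in RANKL, and 4.09, 3.49 and 4.05 in RANKL + UD libraries. RANKL libraries were the highest, and control and RANKL + UD overlapped. It rose 1.80-fold with RANKL (log2 fold change 0.85, SE 0.103, edgeR adjusted p = 4.27e-07) and fell by 0.81 (SE 0.103, adjusted p = 2.34e-06) with UD. Against control the log2 fold change was 0.04, with an interval of -0.19 to 0.26 and an adjusted p of 0.800.

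Trp53, the gene of p53 itself, had 34.77, 35.39 and 39.01 FPKM in control, 25.45, 25.53 and 26.82 in RANKL, and 30.08, 31.95 and 29.60 in RANKL + UD libraries. It fell by 0.40 (SE 0.0546, edgeR adjusted p = 2.14e-06) with RANKL. With UD it rose by 0.15 (SE 0.0549, adjusted p = 0.0361), a call that was lost with DESeq2 (adjusted p = 0.0666), with RLE size factors (adjusted p = 0.0572), without the FPKM filter (adjusted p = 0.0519), and without RANKL replicate 1 (0.14), RANKL replicate 2 (0.14), RANKL + UD replicate 1 (0.16) or RANKL + UD replicate 2 (0.12). Foxo1 (1.44 to 1.99 FPKM) and Foxo3 (7.89 to 10.9 FPKM) were not called in RANKL against control (-0.23 and -0.11, adjusted p = 0.0584 and 0.167) or in RANKL + UD against RANKL (-0.11 and 0.01, adjusted p = 0.437 and 0.939). In RANKL + UD against control Foxo1 was called lower (-0.35, SE 0.104, edgeR adjusted p = 0.00799), and Foxo3 was not called (-0.11, adjusted p = 0.211). In RANKL against control Foxo1 passed the threshold under total counts (-0.32, adjusted p = 0.0107) and with limma (-0.20, adjusted p = 0.00376). Foxo3 passed under total counts (-0.20, adjusted p = 0.0170) and without control replicate 3 (-0.17, adjusted p = 0.0472). Mdm4, the relative of Mdm2 that also restrains p53, fell by 0.58 (SE 0.0602, adjusted p = 4.55e-08) with RANKL, the opposite direction to Mdm2. With UD its log2 fold change was 0.13 (adjusted p = 0.0873), which passed the threshold under total counts (0.22, adjusted p = 0.00589), with the 6 libraries alone (0.13, adjusted p = 0.0474), with the replicate block (0.14, adjusted p = 0.0359), and without control replicate 3 (adjusted p = 0.0347) or RANKL replicate 1 (adjusted p = 0.0309).

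Among 13 tested p53 and FoxO regulators, 1 rose and 6 fell with RANKL, and 7 rose and 3 fell with UD. Under total counts these splits were 0 and 10, and 7 and 1. In the main fit 27.3% of all tested genes rose and 30.2% fell with RANKL, and 18.6% rose and 20.2% fell with UD. The highest with RANKL was the DNA damage kinase gene Atr (log2 fold change 0.23, edgeR adjusted p = 0.00765), whose call was lost under total counts (adjusted p = 0.0924), with limma (adjusted p = 0.240), and without control replicate 1 (adjusted p = 0.0527) or RANKL replicate 1 (adjusted p = 0.0549). With UD the highest was the checkpoint kinase gene Chek1 (0.46, SE 0.0765, adjusted p = 6.10e-05). The lowest was Foxo4 (-0.51, SE 0.141, adjusted p = 0.00665), a call lost with limma (adjusted p = 0.0980).

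Relatives of the 10 genes were taken from the same families. Of the other CDK inhibitor genes 3 of 6 were tested. Cdkn1c was at 0 reads in every library, which allows up to 3 reads in each, and Cdkn2a and Cdkn2b had at most 2 and 1 reads. Cdkn2c, Cdkn2d and Cdkn3 fell with RANKL by 0.92, 1.23 and 0.50, respectively (SE 0.0909, 0.113 and 0.127). With UD Cdkn2c rose by 0.69 (SE 0.0917, edgeR adjusted p = 4.29e-06), and Cdkn2d (0.12) and Cdkn3 (-0.08) were not called. Of the Plk, sestrin, Mdm and Trp53inp relatives 5 of 6 were tested, and 2 rose and 2 fell with RANKL, whereas 1 rose and 2 fell with UD. The shares over all tested genes were 27.3% and 30.2% with RANKL, and 18.6% and 20.2% with UD.

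Sesn2, the stress-induced sestrin, had 5.19, 5.86 and 6.78 FPKM in control, 11.52, 12.43 and 13.89 in RANKL, and 6.66, 7.85 and 7.71 in RANKL + UD libraries. It rose by 1.17 (SE 0.101, edgeR adjusted p = 2.21e-09) with RANKL and fell by 0.86 (SE 0.0988, adjusted p = 6.90e-07) with UD, in both cases opposite in sign to Sesn1. The difference between the 2 sestrins was not tested. Plk4, which duplicates centrioles, fell by 0.67 with RANKL and rose by 0.34 with UD, opposite in sign to Plk2. Trp53inp2, named after its values were seen, rose by 0.93 (SE 0.0868, edgeR adjusted p = 8.55e-09) with RANKL and fell by 0.79 (SE 0.0860, adjusted p = 2.87e-07) with UD, the same signs as Trp53inp1. Plk3 was not called in either comparison (-0.10 and -0.27), although it passed the threshold with UD without RANKL + UD replicate 2 (-0.48, adjusted p = 0.0457), and Sesn3 was at most 0.05 FPKM.

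Of 17 further p53 targets tested, 3 rose and 7 fell with RANKL (median log2 fold change -0.12), and 7 rose and 3 fell with UD (median 0.18), or 9 and 2 under total counts. Over all tested genes 27.3% rose and 30.2% fell with RANKL (median -0.03), and 18.6% rose and 20.2% fell with UD (median 0.005). The counts were not tested against these shares. Pmaip1, a gene of p53-induced apoptosis, rose by 1.91 (SE 0.0579, edgeR adjusted p = 5.48e-17) with RANKL, and Btg2, an antiproliferative gene, fell by 2.07 (SE 0.0911, adjusted p = 3.03e-14). With UD the highest was Zmat3 (0.78, SE 0.0550, adjusted p = 7.48e-10), which encodes an RNA-binding protein, and the lowest was Bbc3 (-0.79, SE 0.136, adjusted p = 9.14e-05), another apoptosis gene. Zmat3, like Ccng1 and Sesn1, was higher with UD than with RANKL in every library (10.15 to 11.19 against 5.66 to 6.05 FPKM). The same held for 34.1% of all tested genes, other p53 targets of this list among them.

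Of 11 tested further FoxO targets, 2 rose and 8 fell with RANKL (median -0.36), and 1 rose and 6 fell with UD (median -0.18), or 2 and 5 under total counts. Over all tested genes the shares were 27.3% and 30.2% with RANKL, and 18.6% and 20.2% with UD. Txnip, which encodes a thioredoxin inhibitor, had 329.71, 347.85 and 339.86 FPKM in control, 39.55, 38.55 and 41.33 in RANKL, and 195.94, 201.98 and 204.96 in RANKL + UD libraries. It fell by 3.00 (SE 0.0487, edgeR adjusted p = 3.13e-21) with RANKL and rose by 2.25 (SE 0.0476, adjusted p = 5.17e-18) with UD, the same signs as Sesn1. Bnip3, a mitophagy gene, rose by 1.43 (SE 0.0438) with RANKL. Klf2, a transcription factor gene, was the lowest with UD (-1.48, SE 0.190, adjusted p = 2.75e-06).

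Genes of cell division are given beside the growth arrest genes. Of 13 proliferation genes 13 fell with RANKL (median -0.45), from Pcna (-0.22) to Aurkb (-1.26), and 13 rose with UD (median 0.61), from Mcm7 (0.19) to Rrm2 (0.97). Relative to control 4 were higher, 3 lower and 6 not called with RANKL + UD. Of 11 tested cyclins and CDKs, 2 rose and 8 fell with RANKL and 9 rose and 1 fell with UD. Over all tested genes 27.3% rose and 30.2% fell with RANKL, and 18.6% rose and 20.2% fell with UD. These lists were chosen with earlier results of these data known, so the counts are descriptions and were not tested against these shares. Ccnd3 fell by 1.13 and Cdk6 rose by 0.84 with RANKL, whereas with UD Ccne1 rose by 0.90 and Cdk6 fell by 0.23 (edgeR adjusted p = 0.00317), a call lost with limma (adjusted p = 0.153). The osteoclast markers, 9 of 9 tested, rose with RANKL (median 5.35) and fell with UD (median -0.86). The part of these changes in the values of the growth arrest genes was not tested.

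**Figure D4:**
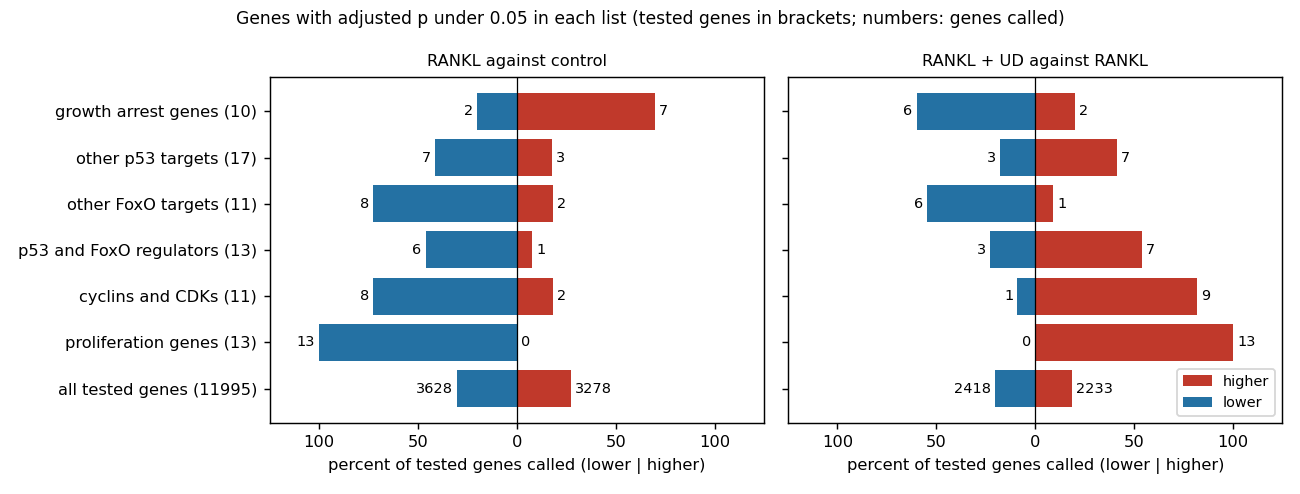
Percent of tested genes called as higher (right of 0) or lower (left of 0) at an adjusted p under 0.05 in 7 lists, for RANKL against control and RANKL + UD against RANKL; numbers beside the bars are genes called, and numbers in brackets are genes tested. All 13 proliferation genes are lower with RANKL and higher with UD, while the 10 growth arrest genes split 7 higher and 2 lower, then 2 higher and 6 lower. The lists were chosen with earlier results of these data known.

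Over the 9 libraries, the gene most alike by Pearson r of log2(FPKM + 1) was Arl11 for Gadd45a (r = 0.998), Gys1 for Gadd45b (0.989), Ppp4r1l-ps for Cdkn1a (0.996), Zfx for Cdkn1b (0.946), Prss35 for Ccng1 (0.994), Egr2 for Ccng2 (0.995), Dner for Plk2 (0.994), Gm9821 for Mdm2 (0.992) and Siae for Trp53inp1 (0.992). Prss35 averaged 0.0, 0.32 and 1.35 FPKM in control, RANKL and RANKL + UD libraries, and Ppp4r1l-ps 1.28, 0.667 and 0.73. Each had a mean of at least 1 FPKM only in the group where its member was highest. Their r values therefore rest on low levels and on the group that let them pass the filter. All these r values are descriptions over 9 libraries in 3 groups and carry no test. Between 12 and 145 tested genes reached an r of 0.95 with each of the 10 genes except Cdkn1b, with which none did. Among the 10 themselves, Gadd45a and Plk2 had an r of 0.93, Gadd45b and Trp53inp1 0.91, Gadd45b and Mdm2 0.90, and Sesn1 and Trp53inp1 -0.93.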

How the data were processed

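The 9 RAW264.7 RNA libraries were grouped by their labels as control, RANKL and RANKL + UD, with 3 in each. The table's value columns call the RANKL libraries the model group. The deposited counts are whole numbers of reads on each gene and were not normalized. The authors derived FPKM from them with the exonic length and the library total. Recomputed FPKM matched in 100.0% of genes in every library (tolerance 0.0051). Gene identifiers, symbols and coordinates came from the deposited table. The submitters' processing notes name mm10, and the aligner and counting tool are not given in the sources used here. The paper's methods name DESeq2.

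Genes with 3 or more libraries at or above 1 FPKM (11995 of 56691) were tested with edgeR 4.0.16 in R 4.3.3 by the quasi-likelihood test. TMM scaling was used with all 9 libraries in 1 fit, Benjamini-Hochberg adjustment over all tested genes and a threshold of 0.05. Fold changes are log2 ratios of scaled counts, with 95% intervals. Each SE was derived from the log2 fold change and the quasi-likelihood F statistic. Intervals used the total degrees of freedom of that test, which borrow from other genes. Intervals and the floor of 3 counts cover counting error or the spread between these libraries only. TMM factors were 0.959 to 0.962 for RANKL and 1.01 to 1.03 for the other libraries. Ratios between genes used FPKM and an exact permutation test over libraries. Replicates differed beyond counting noise (chi-square per degree of freedom 2.91 to 8.89 over 9 pairs). This does not show whether the cultures were independent. Each library was counted as 1 sample.

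The members and the gene lists were chosen with earlier results of these data known. Named genes are the 10 members, their relatives, Trp53, Mdm4, Foxo1 and Foxo3, and the called gene of highest and of lowest log2 fold change in each related list and in each of the first 2 comparisons. For each member the tested gene with the highest correlation is also named. Single results for some genes that these rules name are not reported here. Promoters were searched in RefSeq windows of GRCm38.p6. Counts were simulated for RANKL + UD against RANKL over 11995 genes. Of 100 genes changed by a log2 fold change of 0.5, 71% were recovered, and of 100 changed by 1, 91%, with 13 false calls. Only these genes were changed, whereas 38.8% of tested genes were called in the data, so these rates may not carry over. The alternatives were no filter, filterByExpr, RLE size factors, total counts, DESeq2 1.42.0, limma 3.58.1 on log2(FPKM + 1) and log2(FPKM + 0.1), a fit of only the 6 libraries compared, a block for replicate number, and each library left out in turn. Tables and figures used Python 3.11.15, pandas 2.3.3, numpy 2.4.6, scipy 1.17.1 and matplotlib 3.10.9.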

Additional observations from a re-analysis of the deposited data

How the results depend on the processing

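The number of the 10 growth arrest genes called stayed within 1.5 times the reported 9, 8 and 6 under every alternative run, at 8 to 9 for RANKL against control, 8 to 9 for RANKL + UD against RANKL and 6 to 7 for RANKL + UD against control when each library was left out in turn. Of 180 member values in each comparison, 170, 176 and 176 kept their direction and their side of the threshold. The 6 losses were all Cdkn1b with RANKL.

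Directions turned only for values near 0 that were not called. Cdkn1a in RANKL + UD against RANKL was 0.033 under total counts and 0.032 with limma at either pseudocount. Foxo3 in the same comparison was -0.0041 with RLE size factors and with DESeq2, and ranged from -0.065 to 0.059 when each library was left out. In RANKL + UD against control, Cdkn1b ranged from -0.044 to 0.13 and Trp53inp1 from -0.0073 to 0.11 when each library was left out. The cause was not tested. The largest effects kept their direction and call, with Gadd45a between -2.33 and -1.44, Plk2 between -1.95 and -1.60 and Ccng2 between -1.18 and -0.93 over the alternatives of RANKL + UD against RANKL. For Gadd45a the value nearest 0 came with limma on log2(FPKM + 1), a scale that understates changes of low genes.

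Same-numbered libraries of different groups deviated together with correlations of -0.022 to 0.149, over 0.1 in 2 of 9 pairs, and 10 of 18 best matches were between same numbers. These values do not settle whether the numbers pair the libraries. The main fit did not pair them, and a block for the number was run as an alternative. With the replicate block 9, 8 and 6 members were called, and 7040, 4865 and 6602 genes in all against 6906, 4651 and 6473 without the block. Of the named list genes, the call of Mdm4 was the 1 that the block changed. Gadd45a had the fewest reads of the 10 genes in every library, 23 to 48 in RANKL + UD libraries. In the list of Gadd45 relatives, limma called 1 gene in RANKL + UD against RANKL where edgeR called 0.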
